A study of Mus musculus with 8 samples.

Results

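A set of 34 germline genes, which act in meiosis, in the defence of germ cells against transposons and in sperm formation, was examined in RNA-seq of mouse embryonic stem cells (mESCs). Members were found by an exact match of their symbols in the deposited table, and 33 of the 34 had a row among its 19429 genes. Spo11, the enzyme that makes the DNA breaks of meiosis, had no row and was not analysed here. All lines derived from LF2 mESCs grown with LIF in medium containing serum, and all carried a C-terminal FLAG tag on TET1, introduced by CRISPR-Cas9 on both alleles, with each line propagated from a single cell. The WT group comprised 4 libraries from lines 2 and 5, with wild-type TET1, and the D2018A group 4 libraries from lines 7 and 8, in which an aspartate in the C-terminus of TET1 that contributes to binding of the O-GlcNAc transferase OGT was replaced by alanine. Each line was sequenced as 2 technical replicates. The WT lines also lack a segment of the genome distal to the Cas9 cut site, which the D2018A lines retain.

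Many promoters of germline genes are rich in CpG and become methylated when the embryo forms its somatic lineages, a state copied at each division by DNMT1 with UHRF1. In mESCs an additional layer is known, a variant Polycomb complex whose E2F6 and MGA-MAX subunits bind E2F and E-box motifs at these promoters. TET1, which oxidises 5-methylcytosine, is known for a part in switching such genes on during germ cell development. DNA methylation was not among the data analysed here, so the silencing that gave the set its name was examined only through transcript level.

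The expression value available per gene was the authors' mean normalised count, taken over all libraries of their fit. It is a single number per gene, with no standard deviation, no value per line and no split by genotype, and so the levels describe the cells together and give no difference between D2018A and WT. A further limit lies in which libraries entered the mean. Among the smallest means, many genes share the value that 1 read in 1 library gives, and 12 such values were found, each shared by 38 to 123 genes, against 8 libraries described. The size factors that correspond to these values, an estimate of the relative depth of the libraries, ran from 0.726 to 1.47. The means of all genes added up to 10937569 counts. Since the identity of the other 4 libraries was not given, whether a transcript was present in WT cells, in D2018A cells or only in those 4 cannot be told apart from the mean. Intervals given for means are exact Poisson intervals of 95% on the normalised total over 12 libraries, rounded to whole reads, and cover counting error only.

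The promoter sequences of the set are shown first, because the E-box motif was more frequent in them than in windows of protein-coding genes. Windows of 300 bases, from 250 before to 50 after the start of transcription, were taken from RefSeq on GRCm38.p6 and were found for 31 of the 33 genes. The motifs searched were the E-box CACGTG, which reads the same on both strands, and the E2F motif GCGGGA on either strand, which appears as TCCCGC when it lies on the opposite strand. The 4 windows below are, among windows within 100 bases of the gene's start in the deposited table that held an E-box, those of the genes with the highest levels per kilobase (Hormad1 and Mael) and the lowest (Sycp1 and Tdrd1). Capitals mark E-box and E2F motifs.
Hormad1, chr3:95559427-95559726, plus strand: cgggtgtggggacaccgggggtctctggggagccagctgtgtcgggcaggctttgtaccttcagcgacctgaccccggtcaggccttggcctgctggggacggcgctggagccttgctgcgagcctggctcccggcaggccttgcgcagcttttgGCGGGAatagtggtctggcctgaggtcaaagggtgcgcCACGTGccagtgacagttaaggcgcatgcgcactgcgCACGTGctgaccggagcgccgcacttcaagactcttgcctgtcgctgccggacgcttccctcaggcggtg
Mael, chr1:166238695-166238994, minus strand: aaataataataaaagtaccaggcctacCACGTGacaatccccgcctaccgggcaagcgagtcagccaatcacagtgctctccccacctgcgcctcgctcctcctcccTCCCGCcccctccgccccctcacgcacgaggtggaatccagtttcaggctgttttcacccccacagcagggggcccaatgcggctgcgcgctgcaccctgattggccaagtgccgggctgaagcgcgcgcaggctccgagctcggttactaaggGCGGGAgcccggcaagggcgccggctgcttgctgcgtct
Sycp1, chr3:102936051-102936350, minus strand: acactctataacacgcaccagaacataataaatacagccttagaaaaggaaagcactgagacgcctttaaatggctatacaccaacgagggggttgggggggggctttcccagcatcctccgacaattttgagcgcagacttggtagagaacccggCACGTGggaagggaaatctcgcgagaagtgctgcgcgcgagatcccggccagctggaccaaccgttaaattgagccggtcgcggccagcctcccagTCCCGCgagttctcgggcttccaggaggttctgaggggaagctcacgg
Tdrd1, chr19:56825959-56826258, plus strand: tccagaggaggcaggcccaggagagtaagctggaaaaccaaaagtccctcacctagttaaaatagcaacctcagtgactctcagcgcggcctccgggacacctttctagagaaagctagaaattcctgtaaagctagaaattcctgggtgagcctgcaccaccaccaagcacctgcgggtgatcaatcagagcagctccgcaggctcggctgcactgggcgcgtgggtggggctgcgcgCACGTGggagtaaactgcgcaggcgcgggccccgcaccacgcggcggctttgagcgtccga
The window of Hormad1 held 24 CpG with 2 E-boxes and 1 E2F motif, and that of Mael 24 CpG with 1 E-box and 2 E2F motifs. The windows of Sycp1 and Tdrd1 held 21 and 20 CpG and 1 E-box each, with 1 E2F motif for Sycp1 and 0 for Tdrd1. These 4 windows were chosen for holding an E-box, so its presence in all of them was fixed by the choice. Per kilobase Hormad1 and Mael ranked 6 and 10 of the 33 germline genes, and Sycp1 and Tdrd1 ranked 31 and 32.

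An E-box was present in 14 of 31 windows (45.2%), against 9.46% of 12890 protein-coding genes of the table with a window and 7.24% of all 27025 genes with one. Of the 14, 4 windows held 2 E-boxes, those of Hormad1, Fkbp6, Sycp3 and Tdrd9. An E2F motif was present in 15 of 31 windows (48.4%), against 32.5% of the protein-coding windows. This gap was narrower than that for the E-box, and neither was tested. Both motifs occurred together in 7 windows (22.6%, against 3.48%), and 22 windows (71.0%, against 38.5%) held at least 1 of them. By role, the E-box lay in 7 of 10 windows of piRNA pathway genes and 4 of 6 for the chromosome axis, synapsis and cohesin. For meiotic entry and recombination it lay in 0 of 4, among them Dazl, but the Meioc and Mei1 windows lie away from the gene's outermost start. The E-box was in 2 of 3 windows of transcription factors and chromatin readers. It was in 1 of 5 of housekeeping gene copies and 0 of 3 of other testis-expressed genes. All these motif counts are counts of letters in a window and do not show binding.

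The windows held a median of 20 CpG (range from 8 for Cyct and Mei1 to 38 for Ddx4), against a median of 18 in windows of protein-coding genes. The ratio of observed to expected CpG, which corrects for base composition, had a median of 0.733, and 24 of 31 windows reached 0.6 (77.4%). Among protein-coding genes the median ratio was 0.708 and 62.2% of windows reached 0.6, so by the median the set lay close to protein-coding genes. For all genes with a window the median was 0.389. In the annotated windows 25 of 31 starts lay within 100 bases of the gene's start in the deposited table. The windows of Mei1, Tex101 and Meioc lay 12479, 4625 and 1869 bases downstream of it, and those of Stag3, Tuba3b and Ddx4 269, 206 and 165 bases. These windows thus describe another start than the outermost one.

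**Figure D1:**
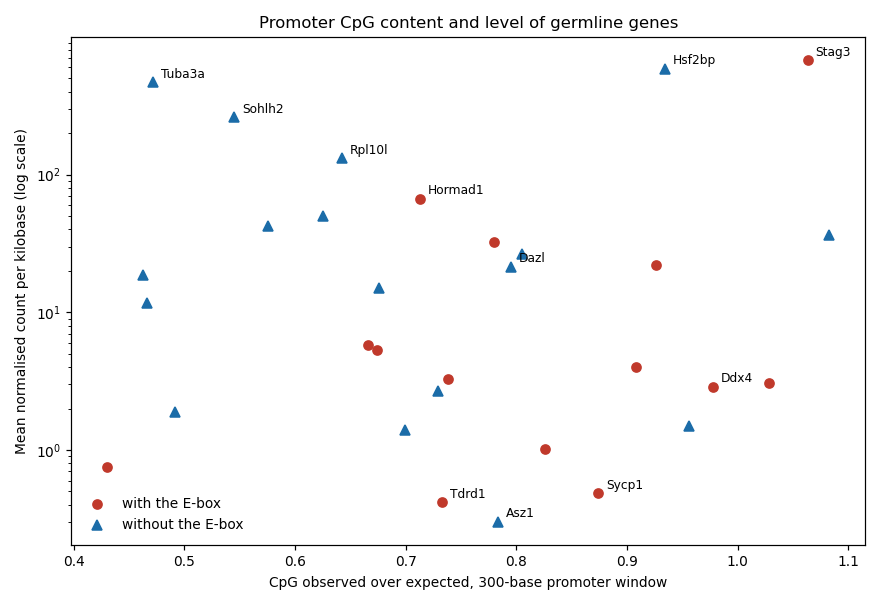
Ratio of observed to expected CpG in the 300-base promoter window (x axis) against the authors' mean normalised count per kilobase of merged exons (y axis, log scale) for 31 germline genes. Circles mark windows with an E-box and triangles windows without one. Stag3 and Sycp1, at 677 and 0.485 per kilobase, both have an E-box and a ratio over 0.8. The window of Stag3 describes a start 269 bases downstream of the gene's start in the deposited table.

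Across these 31 genes the ratio of observed to expected CpG and the level per kilobase had a Spearman rho of -0.06, given as a description since the points come from the same libraries. The median level per kilobase was 3.65 for the 14 genes with an E-box (range 0.417 to 677) and 21.4 for the 17 without (range 0.301 to 585). The ranges overlap over nearly their whole extent, and the difference in medians was not tested.

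Levels of germline genes ranged widely, from Asz1 to Stag3. By the authors' mean, 1 gene lay under 1, 12 lay between 1 and 10, 11 between 10 and 100 and 9 at 100 or more. A mean of at least 10 was thus reached by 20 of 33 genes (60.6%), against 73.2% of 16950 protein-coding genes in the table. A mean of at least 100 was reached by 27.3% against 50.7%. Among protein-coding genes with a known exon length the lowest mean was 0.0565, the value of 1 read in 1 library. Genes without reads thus appear to have no row. These shares, and the percentiles below, hold only among genes with a row. The 4 genes with the highest means, Stag3, Hsf2bp, Tuba3a and Sohlh2, contributed 86.0% of the summed mean of the set. To compare genes of different length, means were divided by the length of merged exons in GENCODE vM21. On this scale the median of the set was 11.6 per kilobase, against 24.5 for protein-coding genes, and the median gene lay at percentile 39.5 of protein-coding genes. Among protein-coding genes, 8 of 33 germline genes lay under percentile 25 and 5 at or above percentile 75, and 12 lay at or above the median. The levels per kilobase spanned 2245-fold from Stag3 to Asz1.

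**Figure D2:**
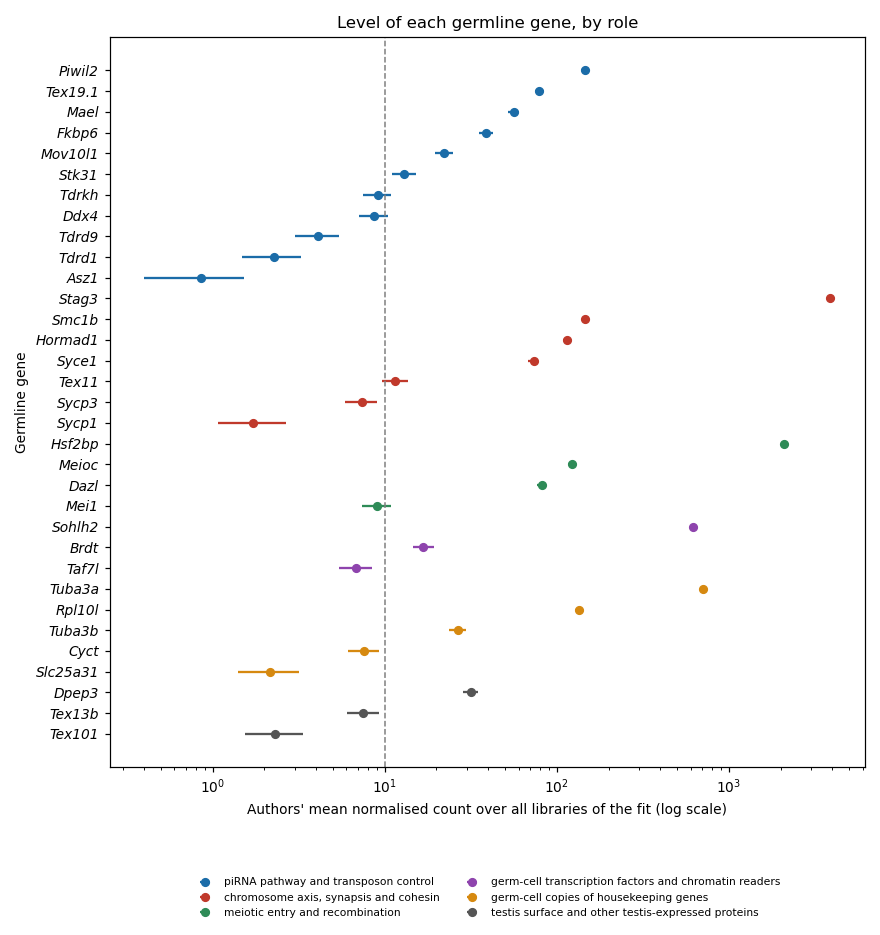
Authors' mean normalised count over all libraries of the fit (x axis, log scale) for each of 33 germline genes (y axis), coloured by role. Bars are exact Poisson intervals of 95% for counting error only, and the dashed line marks a mean of 10. Stag3 lies at 3880 and Asz1 at 0.853, and each role with more than 1 gene spans the dashed line.

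The piRNA pathway, which uses small RNAs and PIWI proteins to silence transposons in germ cells, was represented by 11 genes, of which 6 had a mean of at least 10. Piwil2 (chromosome 14, 70372480 to 70429094), a PIWI protein that binds piRNAs, was the highest by mean, at 146 (counting interval 139 to 153). Tex19.1, which limits retrotransposons in germ cells and placenta, had a mean of 79.4 (74.4 to 84.5), and Mael, a protein of the germ granule, had 56.3 (52.1 to 60.7). These 3 lay near the middle of protein-coding genes per kilobase, at percentiles 51.7, 58.6 and 54.3.

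Fkbp6, a co-chaperone needed for loading of piRNAs, had a mean of 38.9, and Mov10l1, the helicase that feeds precursors into the pathway, had 22.1. Stk31, a Tudor domain protein of germ cells, had 13.0. The germ cell marker Ddx4 (chromosome 13, 112598333 to 112652475), an RNA helicase of germ granules, had a mean of only 8.64 (7.08 to 10.5). Tdrkh, which anchors PIWI proteins at mitochondria, had 9.10, but 36.7% of its exon length is overlapped by other genes, chiefly Oaz3 on the opposite strand.

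The 2 lowest genes of the whole set per kilobase, Asz1 and Tdrd1, were in this pathway. Tdrd9 had a mean of 4.10 (3.02 to 5.40) and Tdrd1 one of 2.27 (1.48 to 3.27), both Tudor domain proteins of the piRNA machinery. Asz1 (chromosome 6, 18050964 to 18109061), which holds piRNA factors at the mitochondrial surface, had the lowest mean, 0.853 (upper bound 1.53). Within 6.5e-09, the rounding error of the table, its mean equalled 1 sum of the 12 values for 1 read, that of 12 reads in 4 of 12 libraries with at most 5 in any library. With a tolerance 10 times as wide, chosen after seeing the data, a second sum of 10 reads in 6 libraries was also found. Which lines these libraries came from cannot be read from the mean.

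Genes of the chromosome axis, the synaptonemal complex and meiotic cohesin spread over the widest range of any role. Stag3 (chromosome 5, 138280240 to 138312393), the meiotic cohesin subunit, had a mean of 3880 (3845 to 3916) and lay at percentile 96.2 of protein-coding genes per kilobase. Smc1b, its partner in meiotic cohesin, had a mean of 147 (140 to 154), and Hormad1, a protein of the unsynapsed axis, had 115 (109 to 121). Of the 50-base stretches of Hormad1, 22.9% also occur in transcripts of Gm15529 and Gm7167, so its level is uncertain. Syce1, of the central element of the synaptonemal complex, had 73.4 (68.6 to 78.3). These 4 genes were all above the median of protein-coding genes per kilobase.

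The remaining 3 were low. Tex11, an X-linked gene required for crossing over, had a mean of 11.5 (9.66 to 13.6). Sycp3 and Sycp1, which form the lateral and transverse elements of the synaptonemal complex, had means of 7.36 (5.88 to 9.03) and 1.72 (1.08 to 2.68). Of the exon length of Sycp3, 52.2% is overlapped by Chpt1 on the opposite strand, so its few reads are uncertain.

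Among genes of meiotic entry and recombination, Hsf2bp (chromosome 17, 31944769 to 32034508), which binds the recombination protein BRCA2, had a mean of 2100 (2074 to 2126). It was the second of the set on both scales. Meioc, which stabilises the meiotic programme, had a mean of 122 (116 to 129), and Dazl (chromosome 17, 50279394 to 50293599), the RNA-binding protein that licenses germ cells for meiosis, had 81.9 (76.8 to 87.1). Mei1, needed for meiotic DNA breaks, had 9.002 (7.38 to 10.9). Per kilobase Meioc and Dazl lay next to the median of protein-coding genes, at percentiles 51.2 and 47.8.

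Of 3 regulators of transcription, only Sohlh2 (chromosome 3, 55182028 to 55209957), a basic helix-loop-helix factor of early germ cells, was high, with a mean of 615 (601 to 630) and a percentile of 88.4. Brdt, the testis bromodomain protein, had a mean of 16.8 (14.6 to 19.3). Taf7l, an X-linked germ cell subunit of the general transcription factor TFIID, had 6.85 (5.43 to 8.48). Per kilobase these lay at percentiles 27.4 and 26.9.

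Of the 5 germ cell copies of housekeeping genes, Tuba3a (chromosome 6, 125278274 to 125286042), an alpha-tubulin of testis, had a mean of 709 (694 to 724). Its neighbour in sequence Tuba3b had 26.6 (23.7 to 29.7). The pair cannot be fully separated, since 35.3% of the 50-base stretches of Tuba3a transcripts and 29.6% of those of Tuba3b also occur in transcripts of other genes, most often in each other. Rpl10l, a retrocopy of the ribosomal protein gene Rpl10, had a mean of 134 (128 to 141). Cyct, the testis cytochrome c, had 7.59 (6.11 to 9.31), and Slc25a31, the germ cell ADP/ATP carrier, had 2.16 (1.42 to 3.17).

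Of the 3 other testis-expressed genes, Dpep3, a membrane dipeptidase, had a mean of 31.7 (28.6 to 35.1), with 7.01% of its exon length overlapped by Gm45752 on the opposite strand. X-linked Tex13b had 7.46 (6.03 to 9.22), and Tex101, a surface protein of germ cells, had 2.30 (1.55 to 3.37). A total of 5 genes, Asz1, Sycp1, Slc25a31, Tdrd1 and Tex101, rested on a normalised total of fewer than 30 reads over all 12 libraries.

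The order of levels per kilobase, from the top, was Stag3, Hsf2bp, Tuba3a, Sohlh2, Rpl10l, Hormad1, Syce1, Tex19.1, Smc1b, Mael, Piwil2 and Meioc, followed below the protein-coding median by Fkbp6, Dazl, Dpep3, Tuba3b, Cyct, Sycp3, Mov10l1, Stk31, Brdt, Tex11, Taf7l, Ddx4, Tex13b, Mei1, Tdrkh, Tex101, Slc25a31, Tdrd9, Sycp1, Tdrd1 and Asz1. Without values per library no neighbours in this order can be said to differ. The highest gene exceeded the third by 1.44-fold.

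Several germline genes have a counterpart with a like function in somatic cells, and levels per kilobase of both were set side by side. Stag3, at 677, exceeded Stag1 (84.7) by 7.99-fold and Stag2 (40.8) by 16.6-fold, so the meiotic subunit was the highest of these 3 cohesin subunits. With the longest transcript as length the first of these ratios was 5.15. Smc1b, at 36.3, was below Smc1a (161), with 0.225 of its level. Tuba3a was listed at 470, Tuba1c at 510, Tuba1b at 1184 and Tuba1a at 1859, and Tuba3b at 15.0. Of the 50-base stretches of Tuba1a, Tuba1b and Tuba1c, 75.5%, 75.1% and 52.7% also occur in transcripts of other genes, so the order of Tuba3a among them is uncertain.

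The other pairs mostly favoured the somatic gene. Slc25a4 (152) and Slc25a5 (898) exceeded Slc25a31 (1.02) by 150-fold and 884-fold, though 33.8% of the 50-base stretches of Slc25a5 also occur in other transcripts. Brd2 (925) and Brd3 (358) exceeded Brdt (3.29) by 281-fold and 109-fold. The first of these was 439-fold with the longest transcript as length, and 9.78% of the exon length of Brd2 is overlapped by other genes. Mov10 (1600) exceeded Mov10l1 (5.29) by 303-fold, and Taf7 (82.7) exceeded Taf7l (3.05) by 27.1-fold.

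In 2 pairs the germ cell copy was listed higher, Rpl10l (131) against Rpl10 (92.1) and Cyct (11.6) against Cycs (5.77). Both somatic genes have many processed copies in the genome, and 33.5% of the 50-base stretches of Rpl10 and 26.2% of those of Cycs also occur in other transcripts, against 7.60% for Rpl10l and 0% for Cyct. How reads that match several genes were treated is not given in the sources used here, so the order within these pairs is uncertain. For Rpl10l it turned with the longest transcript as length, to a ratio of 0.646.

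**Figure D3:**
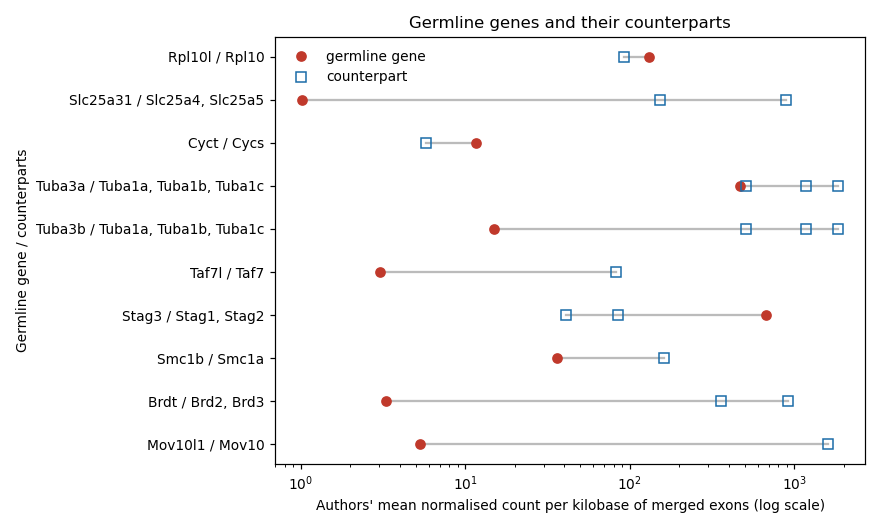
Authors' mean normalised count per kilobase of merged exons (x axis, log scale) for 10 germline genes (filled circles) and their counterparts (open squares), with a grey line joining each set. Stag3, Rpl10l and Cyct lie to the right of every counterpart, and the other 7 germline genes lie to the left of theirs.

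A list of 16 genes of DNA methylation, histone methylation (Setdb1, Ehmt1 and Ehmt2), Polycomb and the TET enzymes was read beside the germline genes. All 16 had a mean of at least 10. Their median was 345 per kilobase, and 322 over the 14 genes other than Tet1 and Tet2. Among germline genes Stag3, Hsf2bp and Tuba3a exceeded both medians. Levels per kilobase were 717 for Dnmt1 and 337 for Uhrf1, which maintain DNA methylation. Dnmt3a and Dnmt3b, which establish it, were at 27.7 and 308, and their cofactor Dnmt3l, which is not itself catalytic, was at 1000. Among the Polycomb subunits that read E2F and E-box motifs, E2f6 was at 51.1, Mga at 369 and Max at 606, with L3mbtl2 at 193 and Pcgf6 at 105. Tet1 was at 1493 and Tet2 at 921 per kilobase. With the longest transcript as length their order turned, to 1606 for Tet1 and 1693 for Tet2, so it is uncertain.

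Marker genes of cell types were read in the same way. All 6 markers of embryonic stem cells were high, from Zfp42 at 520 to Esrrb at 3817 per kilobase. Markers of primordial germ cells, the precursors of gametes, were mixed, with Tfap2c (460), Kit (422), Prdm14 (388) and Prdm1 (118) well expressed, Nanos3 at 29.9 and Dppa3 at 8.16. Of 6 markers of the somatic cells of testis 5 had a row, with a highest level of 19.7 for Gata4, and Cyp17a1 had none. Of 6 fibroblast markers 5 had a row, with Thy1 at 64.8, Col1a1 at 17.5 and Col3a1 at 0.00948. Whether cells of these other types contributed to the levels of germline genes was not tested.

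**Figure D4:**
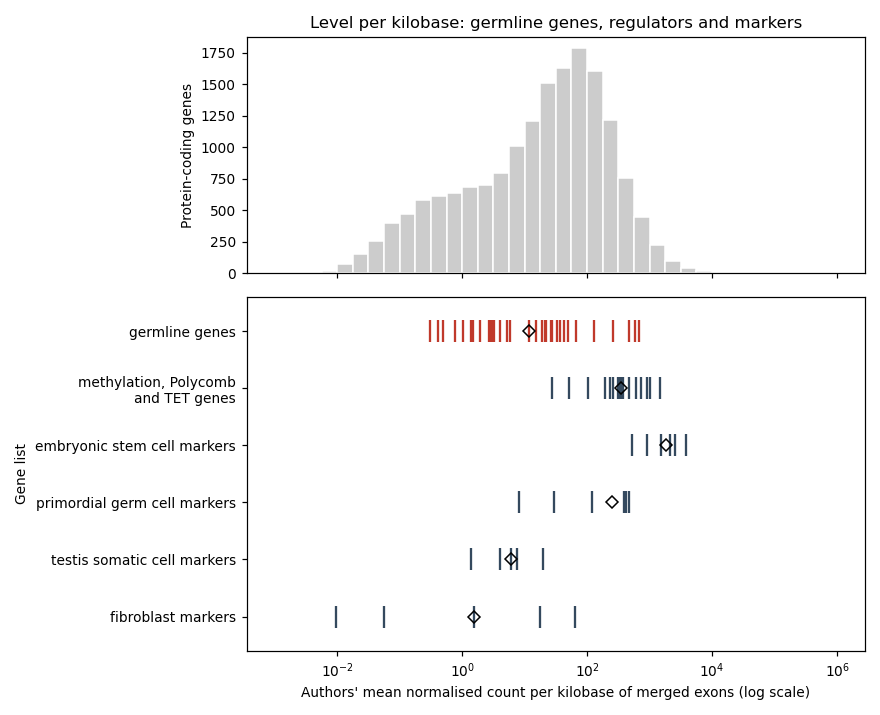
Distribution of the authors' mean normalised count per kilobase of merged exons (x axis, log scale) for protein-coding genes (upper panel, number of genes) and for single genes of 6 lists (lower panel, ticks) with each list's median (diamonds). The median of germline genes, 11.6, lies below those of the list of methylation, Polycomb and TET genes (345) and of embryonic stem cell markers (1836).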

How the data were processed

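RNA-seq libraries were prepared from total RNA of mESCs after depletion of ribosomal RNA and sequenced as single-end reads of 50 bases. The authors aligned and counted reads per gene with STAR 2.5.3a on GRCm38.p6 and normalised and compared them with DESeq2 1.20.0. The deposited table holds, per gene, the authors' mean normalised signal (counts divided by a size factor per library, averaged over libraries) and the columns of their own comparison of D2018A with WT (fold change, its error, statistic, p-values). The columns of that comparison were not used, and no value for a single library was used, so the planned count model was not run and no test was made.

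Libraries in the mean were counted from means under 0.16, each common to 30 or more genes and no sum of smaller such means, a procedure tested on simulated data. Lengths, exon overlap and shared 50-base stretches came from GENCODE vM21 (GRCm38), and 16922 protein-coding genes had a length. Gene coordinates are those of the deposited table. Python 3.11.15, pandas 2.3.3, numpy 2.4.6, scipy 1.17.1 and matplotlib 3.10.9 were used. All members were named, and other genes came from lists of counterparts, of methylation, Polycomb and TET genes and of markers, or share sequence with a gene so named. A further counterpart is not reported here. Members and lists were chosen with earlier results of these data known. The order of rows in the table was not used. Depth per library is not known, and the size factor is only an estimate of its relative value.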

Additional observations from a re-analysis of the deposited data

How the results depend on the processing

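No paired analysis was possible because the table used here gives 1 mean per gene and no values per library, and for the same reason leaving out a line, another count model and a filter on counts were not run. The wider promoter window was not run, since no genome sequence was at hand. The number of germline genes past the minimum mean was 20 at 10, and 27 at 5, 17 at 20 and 15 without 8 genes that share or overlap over 5% of their sequence with other genes, an alternative added later with the data in view. The share of comparison genes that reached 10 was 66.3% over all genes against 73.2% over protein-coding genes. The median percentile of germline genes per kilobase was 45.3 among all genes and 36.7 with the longest transcript as length, against 39.5. The median level per kilobase was 11.6 with either length, because it fell on Cyct, whose merged exons and longest transcript are equally long. Other genes moved, such as Stag3 from 677 to 831. The share of windows with an E-box was 38.9% when restricted to those at a mean of 10 or above, and, in alternatives likewise added later, 45.2% over any annotated window and 48% over windows within 100 bases of the gene's start. Genes under a total of 30 reads have counting intervals that are wide for their level and do not cover variation between libraries or lines.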
